A study of Homo sapiens with 16 samples.

Results

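Of 60662 gene rows in the deposited tables, 37 belong to the mitochondrial genome. They were taken as every gene whose symbol starts with MT-, and comprise 13 protein genes, 2 rRNA genes and 22 tRNA genes, described here in the order in which they lie on the circular genome. RNA-seq came from Jurkat E6-1, an established human T cell line that the labels give as lymphoma and as wild type. The 8 control libraries came from untreated cells at 0 h, and the 8 peroxide libraries from cells held in phosphate-buffered saline with 10 µM hydrogen peroxide for 4 h. A control kept in saline for the same time was not analysed here, so time, saline and peroxide differ together and cannot be told apart. Per the labels the libraries are biological replicates, and each group has 4 libraries in each of 2 batches, named so in the deposited tables. All cells are 1 line, so the p-values describe the spread between cultures of that line.

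The human mitochondrial genome is transcribed from both strands as long precursor RNAs. tRNAs lie between most of the rRNA and protein genes, and their excision by RNase P (at the 5′ end) and RNase Z (at the 3′ end) frees the RNAs on either side. The proteins are core subunits of respiratory complexes I, III and IV and of ATP synthase, while all enzymes that copy, cut and degrade mitochondrial RNA are encoded in the nucleus. Of the 37 genes, 28 lie on the strand read from the heavy-strand promoters (called heavy-strand genes here) and 9 on the other (light-strand genes), namely MT-ND6 and 8 tRNAs. In these bulk libraries, fewer cells that express a gene and less RNA per cell cannot be told apart.

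Libraries held 5556553 to 15720881 reads in genes. The share of reads not aligned uniquely, which are counted for no gene, was 30.2% to 47.2% in controls (median 32.5%) and 33.3% to 45.8% after peroxide (median 37.3%). Its part in the results was not tested beyond leaving out the library of each group with the largest share, control 1 and peroxide 5, without which the counts of called mitochondrial genes were the same. The 10 T cell markers checked (CD3D, CD3E, CD3G, CD247, CD2, CD5, CD7, LCK, ZAP70 and LAT) summed to 2772 to 3513 RPM (reads scaled to a library's reads in genes) in controls and 2801 to 3385 after peroxide, and none was at 0. Of these 10 markers, 3 fell (LAT, CD3G and CD2), a share near the 24.3% of all genes tested that fell. Summed B cell markers were at 29.3 to 54.2 and 29.3 to 57.4 RPM. Summed myeloid markers were at 0.365 to 1.22 and 3.34 to 7.94 RPM, with 1 of 6 tested, CD14, at 0.267 ± 0.194 CPM in controls and 3.15 ± 1.1 CPM after peroxide (SD, n = 8 each). CD14 reached the level that the filter on low counts asks for in 0 of 8 controls, so it was tested through the peroxide libraries alone.

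The mitochondrial genes together lost a large part of their share of the reads in genes. That share was 2.696% in the lowest control, 2.99% at the median and 3.39% in the highest, against 1.41%, 1.71% and 2.30% after peroxide, so the groups did not overlap. The fall was very uneven. Of the mitochondrial reads, rRNA genes made up 10.4% ± 1.80 in controls (SD, n = 8) and 12.2% ± 4.34 in the 8 peroxide libraries, ranges that overlap. The share of tRNA genes went from 0.247% to 0.400% in controls down to 0.0243% to 0.0650%. Light-strand genes went from 1.58% to 2.53% in controls to 0.334% to 0.433% after peroxide. Nearly all light-strand reads were those of MT-ND6 (48713 in controls and 4817 after peroxide), so this share mostly describes that gene. For the last 2 shares, every peroxide library lay below every control. No test was made on these sums.

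All 15 rRNA and protein genes were abundant enough to be tested. Of the 15, 11 fell, 1 rose (MT-ND2) and 3 did not pass (MT-RNR1, MT-ATP8 and MT-ATP6), in edgeR's quasi-likelihood test with Benjamini-Hochberg adjustment over 14092 genes. Among all genes tested 24.3% fell and 24.1% rose, or 48.3% together. The falls of 3 of the 15, MT-CO1, MT-ND5 and MT-ND6, were 2-fold or more, against 0.915% of all genes. For 7 of the 15, every peroxide library lay below every control, a pattern found in 4.49% of all genes, and for 0 of the 15 did every peroxide library lie above, against 6.76%. The median log2 fold change was -0.63 over the 15 and -0.01 over all genes tested. Levels are in CPM (counts scaled to library size with TMM factors), given as the lowest, median and highest of 8 libraries.

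**Figure D1:**
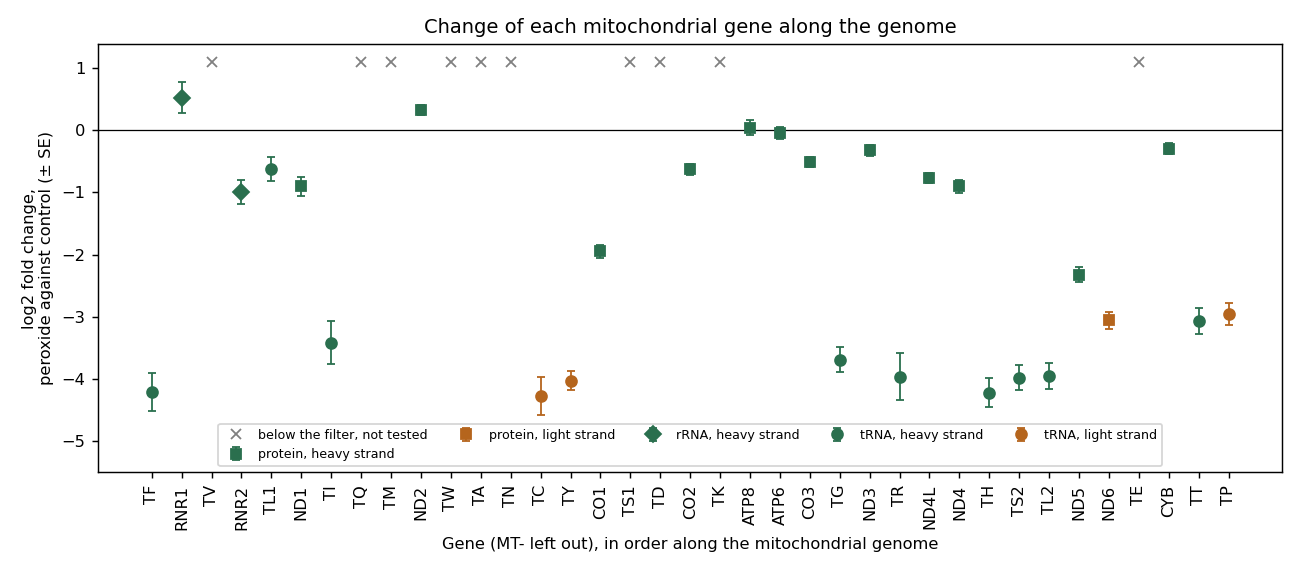
Log2 fold change of peroxide against control (edgeR fit, ± SE) for each mitochondrial gene in genome order; colour gives the strand, marker shape the class, and crosses the 10 tRNA genes that were not tested. Neighbouring genes differ widely: MT-ND2 at 0.32 lies a few tRNAs before MT-CO1 at -1.95, and MT-ND6 at -3.05 lies 1 tRNA before MT-CYB at -0.30.

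Complex I, the NADH dehydrogenase that feeds electrons into the respiratory chain, has 7 subunits encoded here, of which 6 fell and 1 rose. MT-ND6 (ENSG00000198695.2), the only protein gene of the light strand, had 388, 629.6 and 761 CPM in controls and 48.4, 72.9 and 90.4 CPM after peroxide. The highest peroxide library was far below the lowest control, and the change was the largest among the protein genes, a log2 fold change of -3.05 ± 0.14 (SE; edgeR adjusted p = 3.38e-13), or 8.31-fold lower. Its neighbour on the heavy strand, MT-ND5 (ENSG00000198786.2), had 1899, 2765 and 3331 CPM in controls and 374, 526.1 and 662 CPM after peroxide. Those groups did not overlap either, and MT-ND5 fell by 2.32 ± 0.12 on the log2 scale (edgeR adjusted p = 1.13e-12), or 5.00-fold. The strand setting of the authors' counting was not given in the sources used here, so reads from RNA antisense to MT-ND6 cannot be told apart from its own.

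MT-ND4 (ENSG00000198886.2), which shares its mRNA with MT-ND4L, had 4152, 4564 and 5539 CPM in controls and 1862, 2422 and 3336 CPM after peroxide. MT-ND4L had 614, 779 and 1039 CPM, then 346, 469.8 and 571 CPM. Neither gene's groups overlapped, and their log2 fold changes were alike in size, -0.90 ± 0.10 and -0.77 ± 0.09 (edgeR adjusted p = 1.64e-07 and 2.18e-07). MT-ND1, the first protein gene after the rRNAs, had 733, 1047 and 1567 CPM in controls and 396, 518 and 754 CPM after peroxide, a fall of 0.91 ± 0.15 (edgeR adjusted p = 2.8e-05) and its highest peroxide library lay just above its lowest control. MT-ND3 had 607, 737 and 843 CPM, then 457, 575 and 743 CPM, and fell by 0.33 ± 0.08 on the log2 scale (edgeR adjusted p = 0.00245) with ranges that overlap.

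MT-ND2 (ENSG00000198763.3) was the 1 member called higher. It had 932, 1334 and 1759 CPM in controls and 1088, 1656 and 2236 CPM after peroxide, and the pooled ranges overlap. Within batch 1 they did not, at 1351 to 1759 CPM in controls and 1861 to 2236 CPM after peroxide. In batch 2, controls had 932 to 1317 CPM and peroxide libraries 1088 to 1452 CPM. The log2 fold change was 0.32 ± 0.08 (edgeR adjusted p = 0.00312). It was 0.28 in batch 2 alone (edgeR adjusted p = 0.0627) and did not pass without the batch term (adjusted p = 0.143). The share of MT-ND2 in mitochondrial protein-gene reads was 4.06% to 6.39% in controls and 8.17% to 13.6% after peroxide, without overlap. That share also grows when other protein genes fall, so it is no separate measure of a rise. MT-CYB, which fell, went from 8.31% to 10.5% in controls to 11.5% to 13.6%. MT-ATP6, which did not pass, went from 7.06% to 9.35% in controls to 11.6% to 15.3%, both without overlap.

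Complex IV, cytochrome c oxidase, has 3 subunits here, and all 3 fell with no overlap between groups, though by unequal amounts. MT-CO1 (ENSG00000198804.2), the catalytic subunit that holds the haem-copper centre, had 2616, 3238 and 3582 CPM in controls and 498, 841 and 1148 CPM after peroxide. This was 3.86-fold lower, a log2 fold change of -1.95 ± 0.10 (edgeR adjusted p = 1.9e-12). MT-CO2, which takes electrons from cytochrome c, had 2965, 3248 and 4193 CPM, then 1542, 2225 and 2636 CPM. MT-CO3 had 2422, 2701 and 3129.8 CPM, then 1473, 1926 and 2416 CPM. The log2 fold changes of MT-CO2 and MT-CO3 were -0.63 ± 0.09 and -0.51 ± 0.08 (edgeR adjusted p = 6.35e-06 and 2.93e-05). MT-CYB, the cytochrome b of complex III, had 1956, 2427 and 3020.1 CPM, then 1672, 1886 and 2316 CPM, which overlap, and fell by 0.30 ± 0.09 (edgeR adjusted p = 0.00693). In batch 2 alone MT-CYB did not pass (edgeR adjusted p = 0.0916).

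The ATP synthase subunits MT-ATP8 and MT-ATP6 are read from 1 mRNA in overlapping reading frames. MT-ATP6 had 1637, 2202 and 2670.2 CPM in controls and 1551, 2059.8 and 2997 CPM after peroxide. MT-ATP8 had 370.4, 545 and 776 CPM, then 352, 519 and 915 CPM. Both pairs of groups overlap over most of their range, and the log2 fold changes of -0.05 ± 0.10 and 0.04 ± 0.12 did not pass (edgeR adjusted p = 0.722 and 0.813). The signs of both values turned under other settings. The 2 genes share the 46 bases below in the GENCODE release 29 transcripts, with the start codon of MT-ATP6 in capitals, shown because reads that lie in them fit both genes. The way such reads were counted was not given in the sources used here.
MT-ATP8 and MT-ATP6 overlap: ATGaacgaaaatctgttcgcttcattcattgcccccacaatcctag

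**Figure D2:**
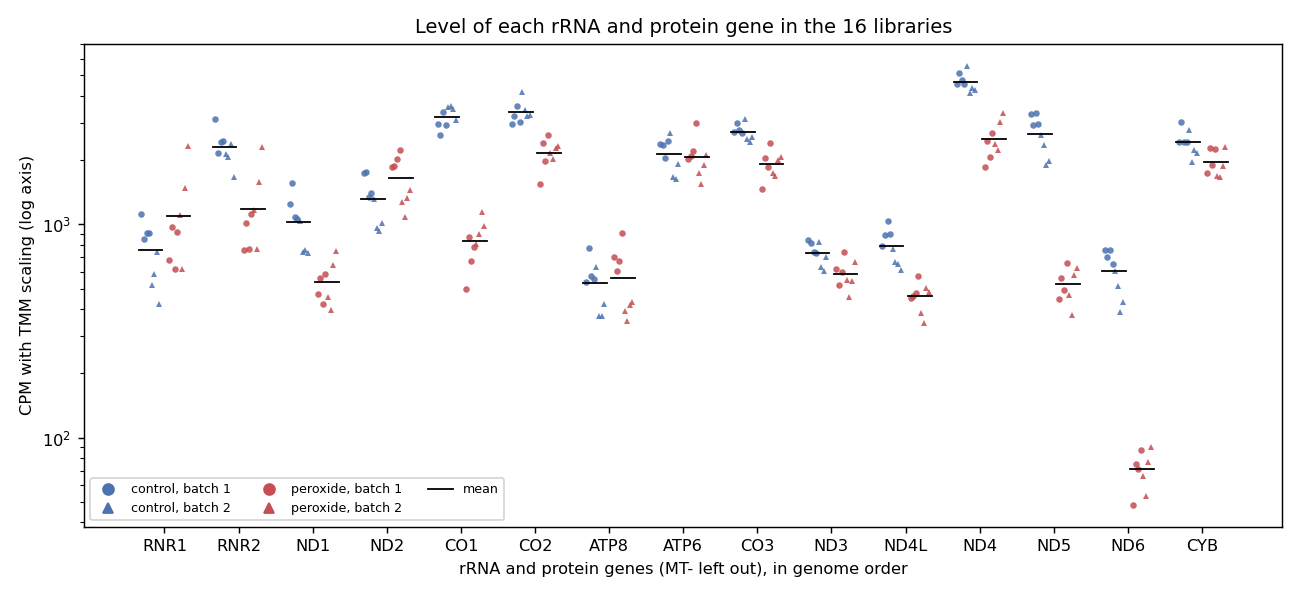
CPM with TMM scaling (log axis) of the 15 rRNA and protein genes in genome order, 1 point per library (8 control, 8 peroxide), circles for batch 1 and triangles for batch 2, with group means as lines. Groups stand fully apart for MT-CO1, MT-CO2, MT-CO3, MT-ND4L, MT-ND4, MT-ND5 and MT-ND6, and overlap for the other genes.

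Among reads of the 13 protein genes, the balance between complexes shifted. Complex I genes held 44.9% ± 2.86 in controls (SD, n = 8) and 39.9% ± 1.62 in the 8 peroxide libraries, and complex IV genes 35.7% ± 3.77 and 31.1% ± 2.99. For both complexes the ranges of the groups overlap, and the batches differed. The mean of complex I went from 47.5% to 39.8% in batch 1 and from 42.3% to 40.0% in batch 2. That of complex IV went from 32.5% to 29.1% in batch 1 and from 38.9% to 33.1% in batch 2. Complex III, which is MT-CYB alone, went from 9.26% ± 0.655 to 12.4% ± 0.741. The ATP synthase pair went from 8.63% to 11.4% in controls to 14.1% to 19.98% after peroxide, with no overlap. These shares sum to the whole, so 1 complex cannot lose share without another gaining it.

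Per kilobase of gene, the 13 protein genes were closer to each other in controls than after peroxide. In controls the order of mean CPM per kb ran from MT-CO2 (4917 ± 572) down to MT-ND1 (1074.5 ± 302, SD, n = 8), a ratio of 4.58. After peroxide it ran from MT-CO2 (3174 ± 482) down to MT-ND6 (135 ± 28.2), a ratio of 23.5, and of 10.9 among heavy-strand genes alone. MT-ND6 stood at 1146 ± 274 CPM per kb in controls, within the spread of MT-ND2 (1258 ± 314) and MT-ND1. After peroxide it stood below every other protein gene.

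The changes were also set beside position and length. Over the 12 heavy-strand protein genes, the log2 fold change had Pearson's r = -0.19 and Spearman's rho = -0.13 with the place in genome order. With gene length the values were -0.70 and -0.55, and without MT-CO1 and MT-ND5, the 2 genes farthest from the median length, -0.20 and -0.21. The same 2 genes fell most on the heavy strand, so the relation with length rests on them. These are descriptions over 12 genes measured in the same libraries, with no test.

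The rRNA genes lie near the start of the heavy-strand precursor and gave different results. MT-RNR2 (ENSG00000210082.2), the large-subunit rRNA of the mitochondrial ribosome, had 1672, 2283 and 3123 CPM in controls and 758, 1065 and 2318 CPM after peroxide. It fell by 0.99 ± 0.19 on the log2 scale (edgeR adjusted p = 0.000197), although the highest peroxide library reached into the range of the controls. MT-RNR1 (ENSG00000211459.2), the small-subunit rRNA, had 425, 795 and 1117 CPM in controls and 618, 946 and 2333 CPM after peroxide. Those ranges overlap, and the log2 fold change of 0.52 ± 0.25 did not pass (edgeR adjusted p = 0.0932). With 1 library left out it ranged from 0.30 to 0.64, and among those fits it passed in the one without peroxide 3 (edgeR adjusted p = 0.0435). It also passed in batch 2 alone and in the fit with no filter.

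The change of MT-RNR1 differed between the batches. In batch 1, controls had 850.4 to 1117 CPM and peroxide libraries 618 to 973 CPM, a log2 fold change of -0.25 (edgeR adjusted p = 0.169 in batch 1 alone). In batch 2, controls had 425 to 739 CPM and peroxide libraries 621 to 2333 CPM, a log2 fold change of 1.29 (edgeR adjusted p = 0.00308 in batch 2 alone). The difference between batches was 1.54 ± 0.36 on the log2 scale (interaction of batch and group, edgeR adjusted p = 0.0199), and stayed between 1.17 and 1.78 with any 1 library left out (adjusted p = 0.00123 to 0.0443). It was the only such call among the 27 mitochondrial genes tested, against 4.88% of all genes. MT-RNR2 fell by 1.48 in batch 1 and by 0.50 in batch 2, where it did not pass (edgeR adjusted p = 0.112), and its interaction of 0.97 did not pass (adjusted p = 0.0757). Nor did that of MT-ND1, at 0.74 (adjusted p = 0.0819). Without peroxide 6, all 3 interactions passed (edgeR adjusted p = 0.00123, 0.0115 and 0.029).

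**Figure D3:**
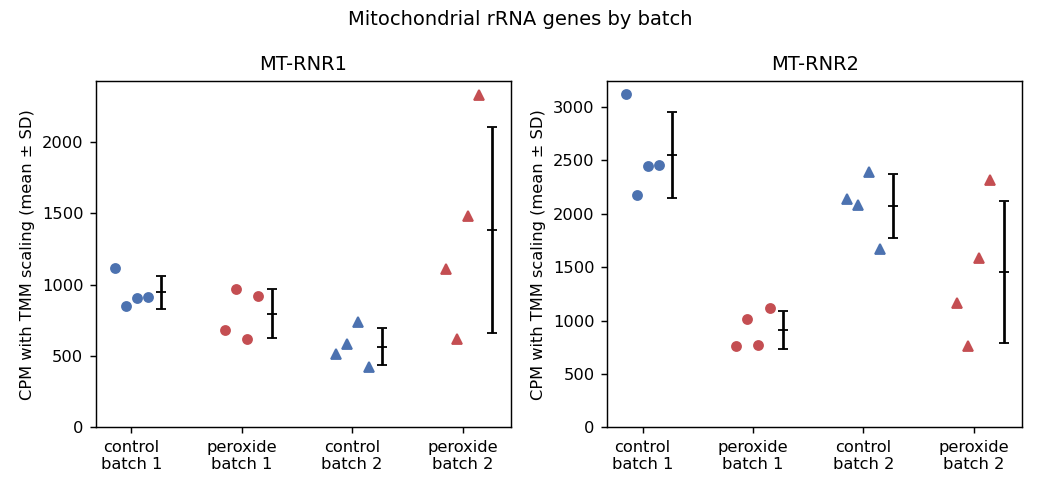
CPM with TMM scaling of MT-RNR1 (left) and MT-RNR2 (right) in each library, split by group and batch (4 libraries each), with mean ± SD beside the points. For MT-RNR1 the peroxide libraries of batch 2 spread from 621 to 2333 CPM, while those of batch 1 lie between 618 and 973 CPM.

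The tRNA genes, 59 to 75 bases long, were scarce in these libraries and became scarcer. All reads of the 22 tRNA genes came to 78.1, 88.6 and 122.8 RPM (lowest, median and highest control) and to 5.58, 9.10 and 10.7 RPM after peroxide, in total 7559 and 597 reads. The groups lay far apart. Of the 22, 5 had 0 reads in every library (MT-TQ, MT-TA, MT-TN, MT-TS1 and MT-TK), a count that allows up to 3 reads by counting error. The other 17 all had a lower RPM after peroxide, and for 13 of them every peroxide library lay below every control in RPM. The exceptions in RPM were MT-TV, MT-TL1, MT-TW and MT-TD. On the CPM scale MT-TM overlapped as well, with a lowest control of 0.943 and a highest peroxide library of 1.08 CPM. In CPM, 4.49% of all genes tested had every peroxide library below every control. The 17 include tRNAs too scarce to be tested, and those tested passed through the controls, so these counts cover unlike sets of genes. A read counted here may come from a mature tRNA, a longer precursor or a fragment, which the counts cannot tell apart.

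Of the 22 tRNA genes, 12 passed the filter on low counts, and all 12 fell. They passed through the controls, since none reached the filter's level in all 8 peroxide libraries and 8 reached it in none. A lower level after peroxide was thus partly built into their selection, and the count is no support for a general fall. The same limit holds for the p-values and the separate groups given below for these 12. The sequences below, written as DNA from the GENCODE release 29 transcripts with the anticodon in capitals, are those of the 4 tRNAs with the most control reads and of MT-TL1, which fell least and shares its amino acid, leucine, with MT-TL2.
MT-TL2: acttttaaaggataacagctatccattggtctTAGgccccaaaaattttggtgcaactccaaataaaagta
MT-TL1: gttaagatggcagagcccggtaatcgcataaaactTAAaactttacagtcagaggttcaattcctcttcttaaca
MT-TY: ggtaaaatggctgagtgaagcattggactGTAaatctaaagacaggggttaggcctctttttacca
MT-TF: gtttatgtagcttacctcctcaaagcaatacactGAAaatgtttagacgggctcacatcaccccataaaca
MT-TP: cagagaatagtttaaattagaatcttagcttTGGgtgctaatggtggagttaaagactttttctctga

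The leucine tRNA MT-TL2 (ENSG00000210191.1), which reads CUN codons and lies between MT-TS2 and MT-ND5, had the most reads. It had 11.6, 17.6 and 22.7 CPM in controls and 0.482, 0.975 and 2.27 CPM after peroxide. The groups did not overlap, and MT-TL2 fell by 3.95 ± 0.21 on the log2 scale (edgeR adjusted p = 2.86e-12). The tyrosine tRNA MT-TY (ENSG00000210144.1), on the light strand just before MT-CO1, had 10.5, 12.04 and 14.7 CPM, then 0.361, 0.838 and 1.06 CPM. It fell by 4.02 ± 0.15 (edgeR adjusted p = 2.81e-14), also without overlap. The phenylalanine tRNA MT-TF, the first gene of the heavy-strand precursor, had 3.32, 7.00 and 15.03 CPM, then 0, 0.416 and 0.730 CPM, and fell by 4.21 ± 0.31 (edgeR adjusted p = 3.29e-10).

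The other leucine tRNA, MT-TL1 (ENSG00000209082.1), reads UUR codons and lies between MT-RNR2 and MT-ND1. It had 2.20, 2.91 and 4.50 CPM in controls and 0.932, 1.94 and 2.75 CPM after peroxide, ranges that overlap. Its fall of 0.63 ± 0.20 (edgeR adjusted p = 0.0108) was the smallest among the 12. It passed with any 1 library left out, but not in either batch alone (edgeR adjusted p = 0.113 and 0.0661). By total reads, 239 in controls and 128 after peroxide, its RPM was 1.61-fold lower (95% interval 1.29 to 2.01, counting error only), while MT-TL2 was 16.8-fold lower (13.3 to 21.3), from 1521 and 78 reads.

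The remaining 8 tested tRNAs fell by 2.95 to 4.27 on the log2 scale. The cysteine tRNA MT-TC, beside MT-TY on the light strand, changed most (-4.27 ± 0.31; edgeR adjusted p = 2.66e-10). On the heavy strand, the histidine tRNA MT-TH fell by 4.22 and the serine tRNA MT-TS2 by 3.98, and these lie in 1 run with MT-TL2 between MT-ND4 and MT-ND5. MT-TR (arginine), MT-TG (glycine) and MT-TI (isoleucine) fell by 3.96, 3.69 and 3.42. The last 2 genes in the order are MT-TT (threonine, heavy strand) and MT-TP (proline, light strand), which fell by 3.07 and 2.95. Below the filter, MT-TM (methionine) had 124 reads in controls and 30 after peroxide, MT-TV (valine), between the rRNA genes, 62 and 9, MT-TE (glutamate) 33 and 1, MT-TD (aspartate) 13 and 1, and MT-TW (tryptophan) 4 and 1. In a fit with no filter, 16 of the 17 tRNAs with reads fell, against 11.3% of all genes in that fit. The 11.3% is over 38177 genes with at least 1 read, many of them scarce. Of the 14092 genes kept by the filter, 24.3% fell in the main fit. The p-values of the fit with no filter were far smaller than those of the filtered fit (for MT-RNR1 an edgeR adjusted p of 9.98e-11 in place of 0.0932, at a log2 fold change of 0.47), so its calls are less certain.

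**Figure D4:**
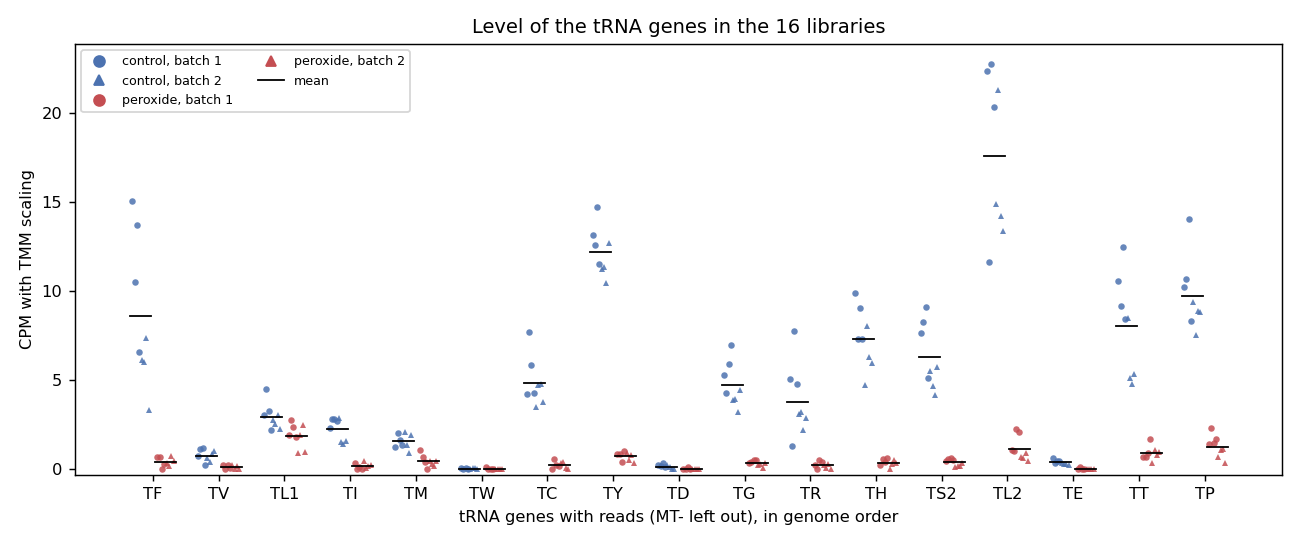
CPM with TMM scaling of the 17 tRNA genes with reads, in genome order, 1 point per library (8 control, 8 peroxide), circles for batch 1 and triangles for batch 2, with group means as lines. Control libraries reach 22.7 CPM for MT-TL2, whereas the highest value after peroxide is 2.75 CPM, for MT-TL1.

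Ratios of neighbouring genes within a library do not depend on scaling to library size. For the 14 pairs of neighbouring rRNA and protein genes, the log2 ratio was compared between groups by an exact permutation test within batches (two-sided, 4900 splits, smallest possible p = 0.000408). Of the 14, 11 changed after Benjamini-Hochberg adjustment over the pairs, and for 8 the groups did not overlap. MT-RNR1 to MT-RNR2 had a ratio of 0.242, 0.333 and 0.391 in controls and 0.805, 0.919 and 1.01 after peroxide. The log2 difference was 1.498 (exact permutation p = 0.000408, adjusted 0.000635), with 1.22 in batch 1 and 1.77 in batch 2, although MT-RNR1 alone did not pass. The 7 other pairs without overlap gave that same smallest p.

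The 2 largest changes in ratio lay at MT-ND6 and MT-CO1. The ratio of MT-ND6 to MT-CYB went from 0.175, 0.247 and 0.314 to 0.0279, 0.0380 and 0.0407, a log2 difference of -2.77. This pair, like MT-ND5 to MT-ND6, sets a light-strand gene beside a heavy-strand gene, so its genes come from different precursors. MT-ND2 to MT-CO1 went from 0.267, 0.386 and 0.672 to 1.16, 1.86 and 3.74, so MT-ND2 had fewer reads than MT-CO1 in every control and more in every peroxide library (log2 difference 2.29). MT-ND4 to MT-ND5 went from 1.39, 1.77 and 2.29 to 4.04, 4.75 and 5.95, a log2 difference of 1.42. The other pairs without overlap were MT-CO1 to MT-CO2 (-1.33), MT-ND1 to MT-ND2 (-1.24), MT-ND5 to MT-ND6 (0.74) and MT-ATP6 to MT-CO3 (0.48). For MT-ATP6 to MT-CO3 the groups nearly touched, with a highest control ratio of 0.9185 and a lowest peroxide ratio of 0.9187.

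The 3 smallest differences, none of which passed, include both pairs that share an mRNA. MT-ATP8 to MT-ATP6 had a log2 difference of 0.10 (exact permutation p = 0.279, adjusted 0.301) and MT-ND4L to MT-ND4 one of 0.14 (exact permutation p = 0.0465, adjusted 0.0543). The latter passed in 4 of the 16 fits that left out 1 library (adjusted p down to 0.0229). MT-RNR2 to MT-ND1, with MT-TL1 between them, had -0.13 (exact permutation p = 0.353, adjusted 0.353). Of the pairs that passed with overlap, MT-CO2 to MT-ATP8 changed by -0.69 and MT-ND3 to MT-ND4L by 0.44, and MT-CO3 to MT-ND3 by -0.19 (exact permutation p = 0.0327, adjusted 0.0416). The call for MT-CO3 to MT-ND3 was lost in 10 of the 16 fits that left out 1 library.

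**Figure D5:**
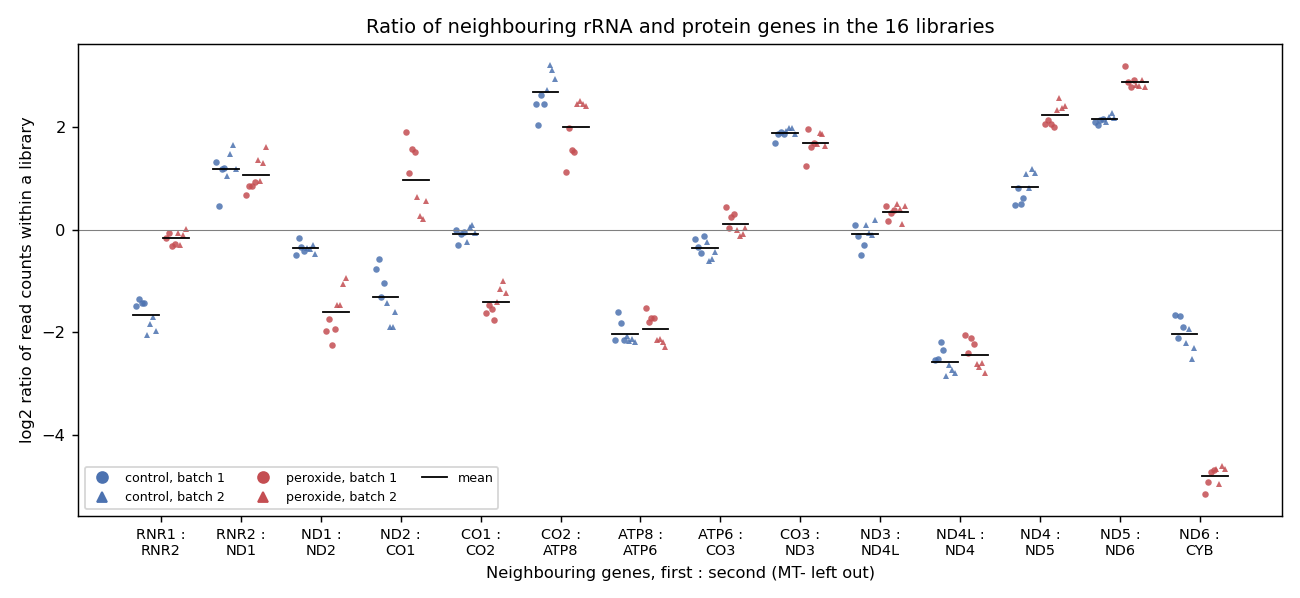
Log2 ratio of read counts of neighbouring rRNA and protein genes within each library, 1 point per library (8 control, 8 peroxide), circles for batch 1 and triangles for batch 2, with group means as lines. The groups stand apart for 8 pairs, most widely for MT-ND6 to MT-CYB, which lie on opposite strands. In that pair the lowest control has a ratio of 0.175 and the highest peroxide library 0.0407. For MT-ATP6 to MT-CO3 the groups nearly touch.

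Copies of mitochondrial genes inserted in the nuclear genome can take up reads or make them align to several places. By symbol, the tables hold 404 annotated copies, all of protein genes, of which 258 had 0 reads, and 4 copies held 97.9% of the reads of all copies. MTATP6P1 had 271 ± 34.9 CPM in controls (SD, n = 8) and 279 ± 38.5 CPM in the 8 peroxide libraries and did not pass, as MT-ATP6 did not. MTND4P12 fell by 0.94 on the log2 scale (edgeR adjusted p = 1.21e-07), beside 0.90 for MT-ND4, and MTCO1P12 fell by 1.87 (edgeR adjusted p = 1.86e-06), beside 1.95 for MT-CO1. MTND2P28 had a log2 fold change of 0.19 ± 0.10, which did not pass (edgeR adjusted p = 0.142), beside the rise of MT-ND2. The share of 50-base stretches of a gene that also occur in an annotated copy was 49.5% for MT-CO1, 46.7% for MT-ATP6 and 43.6% for MT-ND2, but 4.76% for MT-ND5 and 3.54% for MT-ND4. Reads in such stretches may count for neither gene, so levels of the first 3 are less certain. Adding the copies' reads to each protein gene left the counts of calls as they were. For MT-RNR1 and MT-RNR2 0 copies were found by symbol, and copies of tRNA genes were not looked for. The sums therefore say nothing on the rRNA and tRNA genes.

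Nuclear genes that make and handle mitochondrial RNA were taken in short lists, with no set test. For every list, the values to set beside it are those of all genes tested. Of these 24.1% rose and 24.3% fell, with a median log2 fold change of -0.01. Of 11 genes for transcription and upkeep of the mitochondrial genome, 4 rose and 2 fell, with a median log2 fold change of -0.02. MTERF2, a member of the mitochondrial termination factor family, rose from 0.632 ± 0.167 to 4.15 ± 0.773 CPM (log2 fold change 2.69 ± 0.18; edgeR adjusted p = 1.11e-10). It reached the filter's level in 0 of 8 controls and so was tested through the peroxide libraries alone, where it is high. TFB2M, the factor that opens mitochondrial promoters, rose by 0.36, SSBP1, the mitochondrial single-strand DNA-binding protein, by 0.20, and MTERF4 fell by 0.37. Of 15 genes for RNA cutting and processing, 4 rose and 2 fell, with a median of -0.02. Among them PRORP, the nuclease subunit of RNase P, rose by 0.47 ± 0.10 (edgeR adjusted p = 0.000459), PTCD1 by 0.56 and FASTKD5 by 0.39, and TBRG4 fell by 0.32. Of 8 genes for RNA stability and decay, 3 rose and 1 fell, with a median of 0.15. SUPV3L1, the helicase of the RNA-degrading complex, rose by 0.19, SLIRP, which binds mitochondrial mRNAs, by 0.22, and REXO2, which degrades very short RNAs, by 0.17, while EXOG, a mitochondrial nuclease, fell by 0.26. Protein levels were not measured.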

How the data were processed

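The deposited tables, 1 per library, hold whole-number, unnormalized read counts per gene. Per the submitters' processing notes, reads were aligned with STAR 2.7.1a to hg19 and counted with HTSeq 0.6.1. TRIzol RNA went into an Illumina TruSeq preparation with a reduced volume of reagents, per the labels' protocols. Annotation, counting mode and strand setting were not given in the sources used here. All 37 mitochondrial identifiers matched GENCODE release 29 (GRCh38) to the version, which gave order, strand, length and sequences. As this build differs from the one named, no coordinates are printed. Symbols were matched for 60402 identifiers (99.6%). The 5 rows that name no gene held 43.5% to 57.6% of a library and were left out.

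edgeR 4.0.16 (R 4.3.3) was used with filterByExpr on the groups (minimum count 10), TMM factors, and batch and group as terms. The quasi-likelihood test was adjusted by the Benjamini-Hochberg method over all 14092 genes kept, with calls made under 0.05. The SE of a log2 fold change is its size divided by the square root of F. The log2 ratios of neighbours used counts plus 0.5. Counting intervals are exact, at 95%, and like the limit of 3 reads for a count of 0 they cover counting error only. The scripts were tested on simulated data. Libraries within a group always differed by more than sampling noise (smallest chi-square per degree of freedom 2.96). The alternatives were DESeq2 1.42.0, other scaling, no filter, no batch term, each batch alone, a replicate block, summing with nuclear copies and leaving out libraries. All 37 genes are accounted for. Of nuclear copies those with a mean of 5 CPM or more are named, and of each list of nuclear genes up to 4 with the lowest p-values among those averaging at least 1 CPM. The members and the lists were chosen with earlier results of these data known.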

Additional observations from a re-analysis of the deposited data

Results flagged for a closer look

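Among 66 groups of 8 values examined for a sample apart from the rest, 3 had one, and chance gives about 1 in 20 groups. Control 2 had 4.50 CPM of MT-TL1, above the other controls. Peroxide 4 had 2997 CPM of MT-ATP6, above the other peroxide libraries. In control 1, 47.2% of reads were not aligned uniquely, more than in any other control. The change of MT-RNR1 differed between batch 2 and batch 1 by 1.54 on the log2 scale, in the test of the interaction of batch and group.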

How the results depend on the processing

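Of the 27 mitochondrial genes tested, 23 fell and 1 rose, against 24.3% and 24.1% of all genes. Of these 23, 12 are tRNAs that were tested through the controls alone, so the total is used here only to compare settings. The number that fell was 23 under DESeq2, total-count scaling, no batch term, batch 1 alone and sums with nuclear copies, 27 with no filter (which tests more genes) and 20 in batch 2 alone, and 23 to 24 with 1 library left out. The 23 of batch 1 alone are not the same genes. There MT-TL1 did not pass (edgeR adjusted p = 0.113), while MT-TM, not tested in the main fit, fell (edgeR adjusted p = 0.0301). The number that rose was 2 with no filter (MT-RNR1 added), 0 with no batch term, and 1 to 2 with 1 library left out. The 1 gene that rose in batch 2 alone was MT-RNR1, not MT-ND2. Genes whose change differed between batches numbered 1 to 3 with 1 library left out, and 3 only without peroxide 6. The 11 changed neighbour ratios became 10 in batch 1 alone, 9 in batch 2 alone and 10 to 12 with 1 library left out. The sign turned for MT-ATP8 under total-count scaling (-0.0187), no filter (-0.0101) and in batch 2 alone (-0.17), for MT-RNR1 in batch 1 alone (-0.25), for MT-ATP6 in batch 1 alone (0.0095) and for the ratio of MT-ATP8 to MT-ATP6 in batch 2 alone (-0.0515). With 1 library left out, MT-ATP8 ranged from -0.0396 to 0.147 and MT-ATP6 from -0.121 to 0.0354. The causes of these shifts were not tested. Pairing of libraries by replicate number was not tested. Within a batch, deviations of same-numbered libraries correlated at -0.15 to 0.17. Each control was compared with the 4 peroxide libraries of its batch, and 4 of 8 controls correlated best with their own number. With the replicate number as a block, 23 genes fell and 1 rose, and 12 ratios changed, with MT-ND4L to MT-ND4 added (adjusted p = 0.0273). Of the tRNA genes, 10 had too few reads to be tested, 5 of them with 0 reads in all 16 libraries, and the cause was not tested.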
